A study of Macaca fascicularis with 2 samples.

Results

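Aminoacyl-tRNA synthetases are the enzymes that attach each amino acid to its transfer RNA (tRNA). They were taken as a fixed list of 37 gene symbols, 21 for cytosolic enzymes and 16 for mitochondrial enzymes, whose symbols end in 2. Of these, 35 were found by symbol among 28175 genes, and HARS2 was found under its placeholder symbol through its NCBI gene number. The cytosolic tyrosine enzyme YARS was not matched and is not analysed here, which left 36 genes, 20 cytosolic and 16 mitochondrial. No value of these libraries was used to choose them, although earlier results of the same libraries were known when the list was drawn up.

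RNA came from gastrocnemius, a calf muscle, of the cynomolgus macaque, Macaca fascicularis. There was 1 non-lean library, labelled with a high fat diet, and 1 lean library, labelled with a chow diet, a comparison that addresses how gene expression differs between obese and lean skeletal muscle. The labels do not give age, sex, diet duration or whether a library is 1 animal or a pool. The non-lean library held 12731972 counts and the lean library 15983348 counts.

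A synthetase recognises its amino acid and the matching tRNAs, and the charged tRNAs supply the ribosome. Mitochondria translate their own small set of messenger RNAs, for core subunits of the respiratory chain, with a separate set of synthetases that are encoded in the nucleus and imported. In mammals several cytosolic synthetases sit in a multisynthetase complex held together by scaffold proteins, and many cytosolic synthetase genes are targets of ATF4, the transcription factor of the amino acid and stress response. Variants in synthetase genes are a known cause of inherited neuropathies, and in the mitochondrial enzymes of disorders of brain, heart and muscle.

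As a whole the family stood at almost the same level in both libraries. The 36 genes summed to 1465 CPM, the count brought to a common library size by edgeR's TMM scaling, in the non-lean library and 1461 CPM in the lean library. Their summed log2 ratio, non-lean over lean, was 0.0039 with a 95% interval of -0.024 to 0.032, where a positive ratio means higher in the non-lean library. All intervals given here are exact counting intervals for the split of reads between these libraries. With 1 library per group there is no replicate error, no difference given here was tested, and animal, sampling and library preparation cannot be told apart from diet and body condition.

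The cytosolic enzymes summed to 1189 CPM in the non-lean library and 1190 CPM in the lean library, a log2 ratio of -0.00066 [-0.031, 0.030]. The mitochondrial enzymes summed to 276 CPM in the non-lean library and 271 CPM in the lean library, a log2 ratio of 0.024 [-0.041, 0.088]. Mitochondrial enzymes took 18.8% of all synthetase counts in the non-lean library (18.3 to 19.4, an exact 95% Clopper-Pearson interval) and 18.6% in the lean library (18.0 to 19.1). This share is independent of library scaling, and its intervals overlapped. Without SARS2, the most abundant mitochondrial member, the mitochondrial sum had a log2 ratio of -0.072 [-0.14, -0.0017]. SARS2 also had the highest ratio of its class, 0.56, so leaving it out could only lower the sum. The sum without IARS2, the lowest of the class at -0.45, was not taken. The share, with KARS left out on the cytosolic side as well, was then 0.823 percentage points lower in the non-lean library. An approximate interval for that share difference, -1.61 to -0.036, also lay below 0.

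With total counts in place of TMM scaling every log2 ratio of a gene or a sum is 0.14 higher, and the sums are then 0.14 for the cytosolic and 0.17 for the mitochondrial enzymes. As a share of all counts, the family held 0.154% (0.152 to 0.156) in the non-lean library and 0.139% (0.137 to 0.141) in the lean library. Statements on levels are therefore relative to the bulk of genes, and the median of all 13707 tested genes, those with a mean CPM of at least 1, was -0.011 under TMM scaling.

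**Figure D1:**
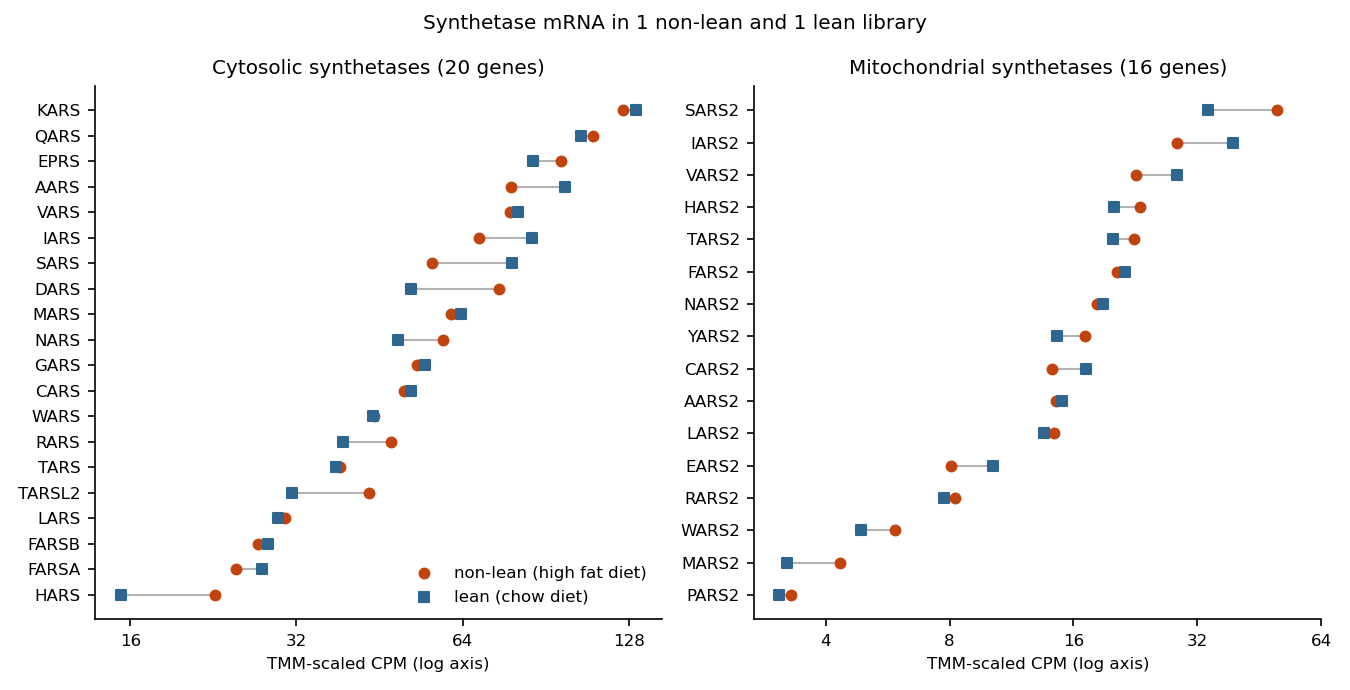
TMM-scaled CPM (log axis) of each of the 20 cytosolic and 16 mitochondrial synthetases in the non-lean library (circles) and the lean library (squares), 1 library each. For most genes the symbols lie close together, and the widest gaps are those of SARS, DARS, HARS and TARSL2 on the cytosolic side and SARS2 and IARS2 on the mitochondrial side; positions are not corrected for transcript length and do not rank genes against each other.

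None of the 36 synthetases was 2-fold apart. A 2-fold difference was reached upward by 4.91% of all tested genes and downward by 7.16%, or 12.1% in all, and among the 9931 tested genes within the synthetases' own range of mean CPM 8.78% were 2-fold apart either way. Intervals lay above 0 for 7 synthetases, where 25.8% of all tested genes did, and below 0 for 5, where 28.8% did. Together that is 33.3% of the family, beside 54.5% of all tested genes and 57.4% of those in the same CPM range. The synthetase log2 ratios had quartiles of -0.069 and 0.21 around a median of 0.019, and the tested genes in that CPM range had quartiles of -0.37 and 0.30 around a median of -0.016. The member furthest from 0 stood at 0.56, and 72.3% of the genes in that CPM range lay no further from 0 than this.

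The 7 with intervals above 0 under TMM scaling, HARS, DARS, TARSL2, RARS, NARS, EPRS and SARS2, were also above 0 with total counts and with median-of-ratios size factors. Of the 5 below 0, SARS, AARS, IARS and IARS2 were below 0 in all 3 scalings, while the interval of VARS2 held 0 with total counts. With total counts 11 synthetase intervals lay above 0, beside 35.0% of all tested genes, and 4 below, beside 20.9%, so that 73.3% of the synthetases called were higher in the non-lean library, against 58.3% under TMM scaling.

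**Figure D2:**
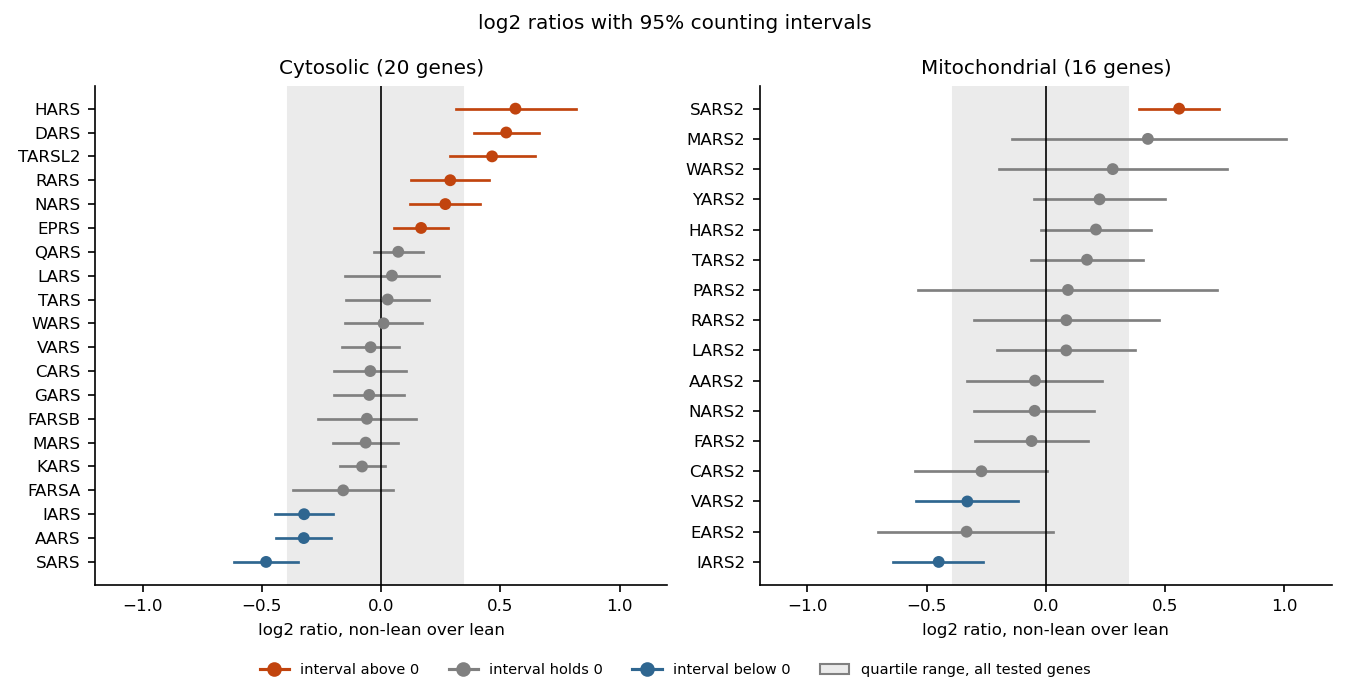
log2 ratio, non-lean over lean, of each synthetase (points) with its 95% counting interval (lines), coloured by the side of 0 on which the interval lies, with the quartile range of all tested genes as a grey band. Cytosolic members run from SARS at -0.48 to HARS at 0.56, and mitochondrial members from IARS2 at -0.45 to SARS2 at 0.56.

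Members of the multisynthetase complex were mixed, with 3 of 8 intervals above 0 and 1 below and a median log2 ratio of 0.059. That is 37.5% above and 12.5% below, beside 25.8% and 28.8% of all tested genes. DARS, which charges aspartate, was the highest, with 995 counts (74.4 CPM) in the non-lean library and 787 counts (51.7 CPM) in the lean library, a log2 ratio of 0.52 [0.39, 0.66]. RARS, the arginine enzyme, had 636 counts in the non-lean library and 592 in the lean library, a ratio of 0.29 [0.13, 0.45]. EPRS, a fused enzyme that charges both glutamate and proline, had 1292 and 1309 counts in the non-lean and lean libraries and a ratio of 0.17 [0.056, 0.28]. These are raw counts, and the lean library was the deeper of the pair, so a near-equal count is a higher share of the non-lean library.

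IARS, the isoleucine enzyme of the complex, was the only one of the 8 with an interval below 0, at 915 counts (68.4 CPM) in the non-lean library and 1303 counts (85.6 CPM) in the lean library, a log2 ratio of -0.32 [-0.45, -0.20]. The intervals of the other 4 held 0. KARS, which charges lysine and in human also yields the mitochondrial lysine enzyme from the same gene, was the most abundant cytosolic member by CPM, with 125 CPM in the non-lean library, 132 CPM in the lean library and a ratio of -0.080 [-0.17, 0.014]. QARS for glutamine had a ratio of 0.072 [-0.031, 0.17], LARS for leucine one of 0.045 [-0.15, 0.24] and MARS for methionine one of -0.065 [-0.20, 0.071].

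The 12 other cytosolic synthetases ranged from -0.48 to 0.56 around a median of -0.045, with 3 intervals above 0 and 2 below. These are 25% and 16.7% of the 12, beside 25.8% and 28.8% of all tested genes. HARS, the histidine enzyme and a known target of autoantibodies in human myositis, had 304 counts (22.7 CPM) in the non-lean library and 234 counts (15.4 CPM) in the lean library. Its log2 ratio of 0.56 [0.31, 0.82] was the highest of the family. TARSL2, a threonine enzyme that is a paralogue of TARS, had 580 counts (43.4 CPM) in the non-lean library and 478 counts (31.4 CPM) in the lean library, a ratio of 0.47 [0.29, 0.64]. TARS itself did not share that difference, with 514 counts in the non-lean library, 574 in the lean library and a ratio of 0.027 [-0.15, 0.20]. NARS for asparagine was higher at 0.27 [0.12, 0.42].

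SARS, the cytosolic serine enzyme, was the lowest member of the family. It had 752 counts (56.2 CPM) in the non-lean library and 1196 counts (78.6 CPM) in the lean library, a log2 ratio of -0.48 [-0.62, -0.35], which is 1.40-fold lower. AARS, the alanine enzyme, had 1049 counts (78.4 CPM) in the non-lean library and 1495 counts (98.2 CPM) in the lean library, a ratio of -0.32 [-0.44, -0.21]. The remaining 7 held 0 and lay between FARSA, the catalytic subunit of the phenylalanine enzyme, at -0.16 [-0.37, 0.051], and TARS. FARSB, the partner subunit, stood at -0.060, GARS for glycine at -0.050, CARS for cysteine at -0.045, VARS for valine at -0.044 and WARS for tryptophan at 0.010.

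WARS is a known target of interferon gamma. It had 592 counts in the non-lean library and 669 in the lean library, and its interval of -0.15 to 0.17 held 0. Of the 9 tested interferon gamma targets in a list of 16, 2 had intervals below 0, or 22.2%, beside 28.8% of all tested genes. None had an interval above 0, where 25.8% of all tested genes did, and the list median was -0.27. IRF1 and PSMB9 were the lowest at -0.60 [-1.06, -0.16] and -0.48 [-1.08, 0.091], and GBP1 and PSMB10 the highest at 0.23 [-0.26, 0.71] and -0.00068.

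Mitochondrial synthetases had fewer reads and wider intervals, with a median of 451 counts per gene over both libraries beside 1537 for the cytosolic genes, and a median interval width of 0.55 beside 0.29 on the log2 scale. Of 16 intervals 13 held 0, and at this depth a difference of the size seen in NARS or RARS would not have been detectable for many of them. Their median log2 ratio was 0.086, and that of the cytosolic members -0.017, while 9 of 16 mitochondrial and 10 of 20 cytosolic members had positive ratios.

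SARS2, the mitochondrial serine enzyme, was the only mitochondrial member with an interval above 0. It had 668 counts (50.0 CPM) in the non-lean library and 516 counts (33.9 CPM) in the lean library, a log2 ratio of 0.56 [0.39, 0.73], or 1.47-fold. IARS2 for isoleucine was the lowest, with 382 counts (28.6 CPM) in the non-lean library and 594 counts (39.0 CPM) in the lean library, a ratio of -0.45 [-0.64, -0.26]. VARS2 for valine had 304 counts (22.7 CPM) in the non-lean library and 435 counts (28.6 CPM) in the lean library, a ratio of -0.33 [-0.55, -0.12]. EARS2 for glutamate, at -0.33 [-0.70, 0.029], and CARS2 for cysteine, at -0.27 [-0.55, 0.0038], lay close to these, but their intervals held 0.

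The other mitochondrial members lay between FARS2 for phenylalanine at -0.060 and MARS2 for methionine at 0.43 [-0.14, 1.01]. MARS2 rested on 58 counts in the non-lean library and 49 in the lean library, and PARS2 for proline, with 44 and 47 counts and a ratio of 0.092 [-0.54, 0.72], on fewer still. WARS2 for tryptophan stood at 0.28 [-0.20, 0.76], YARS2 for tyrosine at 0.22 [-0.048, 0.50], HARS2 for histidine at 0.21 [-0.022, 0.44] and TARS2 for threonine at 0.17 [-0.063, 0.41]. With total counts the intervals of YARS2, HARS2 and TARS2 lay above 0. RARS2 for arginine and LARS2 for leucine were at 0.086 and 0.085, AARS2 for alanine at -0.046 and NARS2 for asparagine at -0.047.

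For 12 amino acids a cytosolic gene was paired with a mitochondrial gene. In the threonine pair the cytosolic gene was TARS, and its paralogue TARSL2, with a log2 ratio of 0.47, was left out. The ratio of the mitochondrial to the cytosolic count within a library needs no scaling, and its change between the libraries was taken as an odds ratio with an exact interval. It was above 1 in the non-lean library relative to the lean library for 6 pairs and below for 6. The median change was -0.044 on the log2 scale, and 8 of the 12 intervals held 0.

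The serine pair was the furthest apart. In the non-lean library SARS2 had 0.888 counts for each count of SARS, and in the lean library 0.431, a log2 change of 1.04 [0.83, 1.26]. This was the single pair whose interval lay above 0, and its members were the lowest cytosolic and the highest mitochondrial gene. Being the extreme of 12 pairs, it is described here after its values were seen.

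Pairs with intervals below 0 were HARS2 to HARS at -0.35 [-0.70, -0.0093], NARS2 to NARS at -0.32 [-0.61, -0.024] and VARS2 to VARS at -0.29 [-0.53, -0.039]. In the histidine and asparagine pairs the cytosolic gene was the one with its own interval above 0, and in the valine pair the mitochondrial gene was the one below 0. In the isoleucine pair both genes had intervals below 0, IARS2 at -0.45 and IARS at -0.32, and their ratio changed by -0.13 [-0.35, 0.099]. The alanine, cysteine and valine pairs also had negative ratios for both genes, with at most 1 of the intervals below 0. Across the 12 pairs the log2 ratios of the mitochondrial and cytosolic genes had a Spearman rho of 0.014 and a Pearson r of 0.037, as a description over genes that share both libraries. In 9 of the 12 pairs the ratios had the same sign, though in most of these at least 1 interval held 0.

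**Figure D3:**
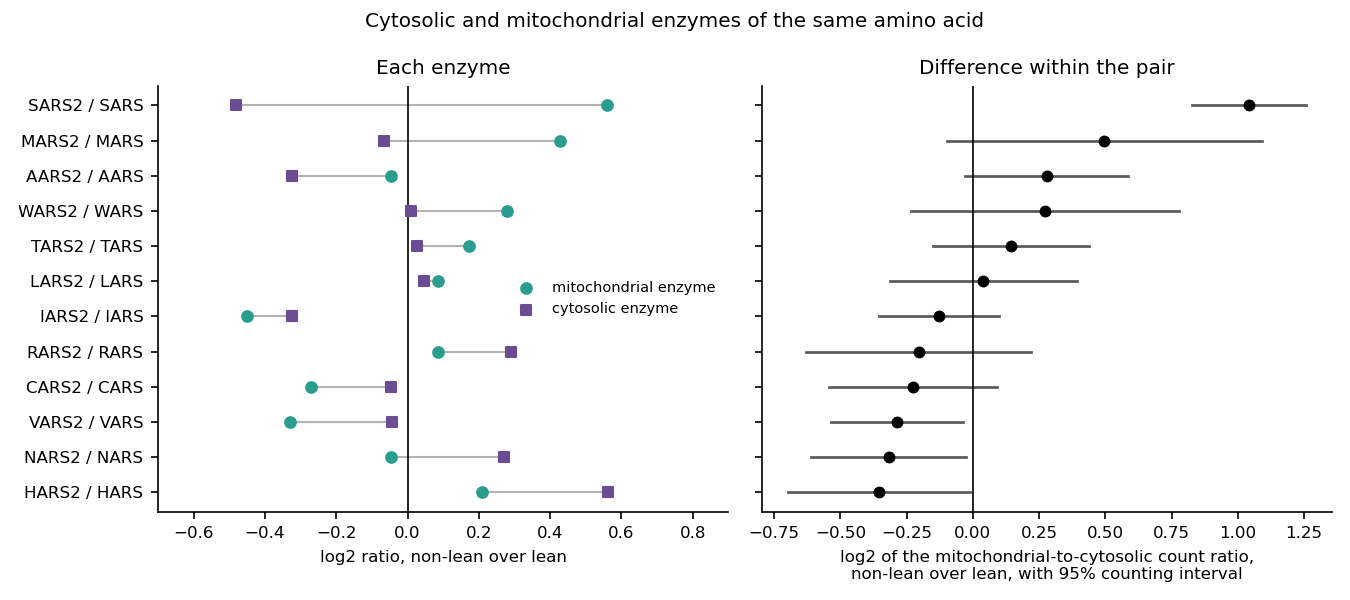
Left, log2 ratio, non-lean over lean, of the mitochondrial (circles) and the cytosolic (squares) enzyme of 12 amino acids. Right, the log2 change of the mitochondrial-to-cytosolic count ratio, non-lean over lean, with its 95% counting interval; SARS2 to SARS lies at 1.04, and the other 11 pairs lie between -0.35 and 0.49.

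The branched-chain amino acids are the theme of the study, whose title names their mitochondrial aminotransferase. Of the 6 synthetases for isoleucine, leucine and valine, 3 had intervals below 0 and none above, namely IARS, IARS2 and VARS2, where 28.8% of all tested genes lay below 0. The interval of VARS2 held 0 with total counts, and IARS stood at 0.17 on its leading transcript model. The cytosolic enzymes IARS, LARS and VARS together summed to 177 CPM in the non-lean library and 196 CPM in the lean library, and IARS2, LARS2 and VARS2 to 65.7 CPM and 81.2 CPM. Both leucine enzymes, LARS and LARS2, held 0 with ratios of 0.045 and 0.085.

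Synthetases fall into 2 unrelated catalytic folds, called class I and class II. The 17 class I genes had a median log2 ratio of 0.010, with 1 interval above 0 (5.88%), that of RARS, and 3 below (17.6%). The 18 class II genes had a median of -0.0092, with 5 intervals above 0 (27.8%) and 2 below (11.1%). Among all tested genes 25.8% lay above 0 and 28.8% below, and the difference between the classes was not tested. EPRS joins a domain of each and was counted in neither. These groupings, like the split by complex and by branched-chain amino acid, were made after the values were seen.

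The gene sums hide larger shifts between transcript models of the same gene. The 36 genes had 123 RefSeq transcript models, and 31 genes had more than 1. In 23 of these 31, or 74.2%, the share of the gene's counts given to its leading model differed by over 10 percentage points between the libraries. Among tested genes with more than 1 model in the same CPM range the figure was 54.2%. In the cytosolic class the leading model's share was over 10 points higher in the non-lean library in 10 of the 11 genes that shifted, and in the mitochondrial class in 4 of 12.

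On the leading model alone 14 of the 36 genes had a log2 ratio of the other sign, and for 9 of these the interval of the leading model excluded 0. AARS and IARS were the 2 whose intervals excluded 0 both ways. Intervals of a single model treat its estimated counts as reads. They leave out the uncertainty of dividing shared reads among models, and so are too narrow. GARS, MARS and AARS2, with sums that held 0, stood at 1.16, 1.15 and 0.88 on the leading model. The leading model of AARS had 913 estimated counts in the non-lean library and 916 in the lean library, while its second model had 136 in the non-lean library and 579 in the lean library. IARS was alike, with 563 and 569 for the leading model and 352 and 734 for the second in the non-lean and lean libraries. On the leading model alone the log2 ratios were 0.18 for AARS and 0.17 for IARS, so by these estimates the lower sums of both genes lie in the second model.

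In SARS2 the difference by these estimates also lay in the second model, with 252 estimated counts in the non-lean library and 49.6 in the lean library. The leading model had 416 and 467, a log2 ratio of 0.020 [-0.17, 0.21]. SARS and IARS2 have 1 model each and have no such split. GARS and MARS had lead shares of 79.5% and 81.6% in the non-lean library and 34.2% and 35.2% in the lean library, with nearly equal sums. CARS went the other way, with 29.8% in the non-lean library and 86.7% in the lean library, as did NARS2 with 32.4% in the non-lean library and a share 42.6 points larger in the lean library. RSEM, the estimation tool that the submitters' processing notes name, assigns reads shared by several models by probability. How far these shifts come from that division was not tested, and the files do not say which models of KARS or GARS encode the mitochondrial form.

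**Figure D4:**
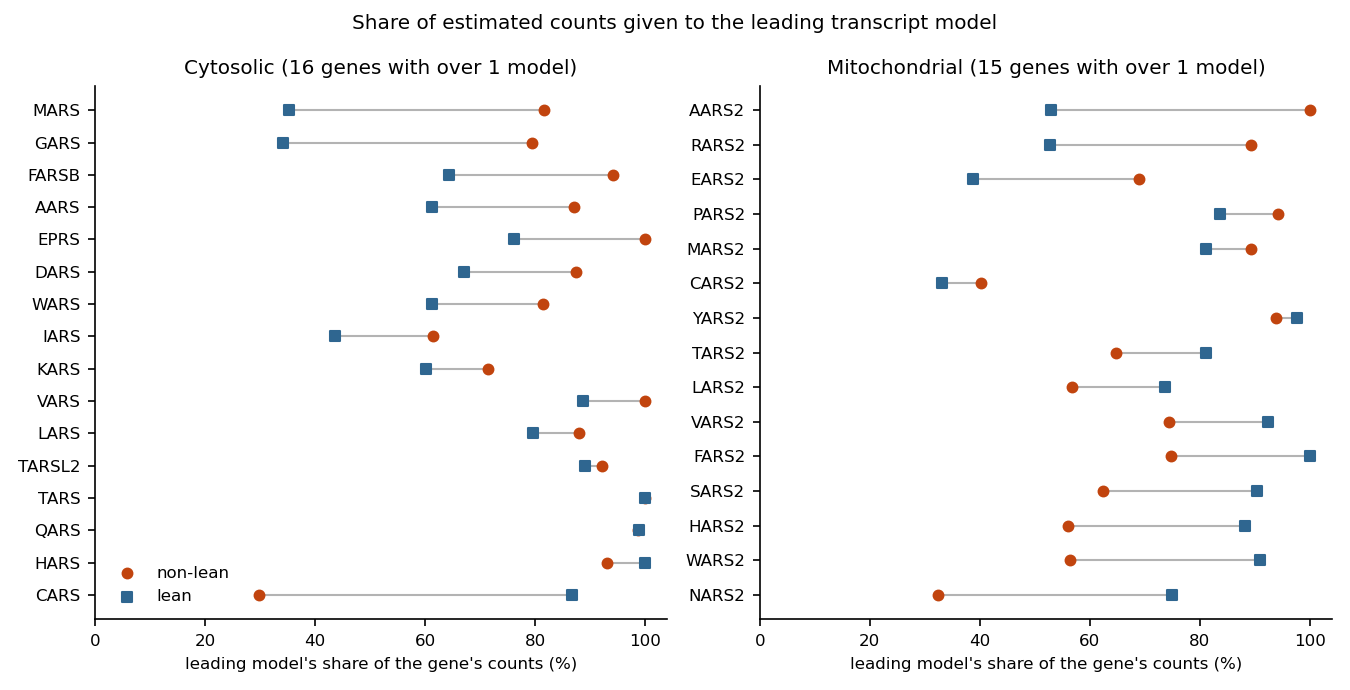
Share of a gene's estimated counts given to its leading transcript model (percent) in the non-lean library (circles) and the lean library (squares), for the 31 synthetases with more than 1 model. MARS and GARS differ by 46.3 and 45.3 percentage points, NARS2 and CARS by 42.6 and 57.0 points in the other direction, and QARS by 0.161 points.

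Some synthetase genes have a close neighbour, and 2 such neighbours belong to the same machinery. In the reference gene table of assembly T2T-MFA8v1.1, HARS and HARS2 lie within 1 kb of each other, as they do in human, where they are known to be transcribed outward from a shared promoter region. HARS stood at 0.56 and HARS2 at 0.21 [-0.022, 0.44], and on its leading transcript model HARS2 stood at -0.45 [-0.73, -0.17]. SARS2 lies within 1 kb of MRPS12, a protein of the mitochondrial ribosome, again a divergent pair in human. MRPS12 had 719 counts in the non-lean library and 487 in the lean library, a log2 ratio of 0.75 [0.58, 0.92], and SARS2 had 0.56. The other neighbours within 1 kb were mixed. Some differed from their synthetase, with ECM1 at -1.08 beside TARS2 at 0.17, DRC5 at 1.56 beside AARS2 at -0.046 and VWA7 at -0.56 beside VARS at -0.044. Others lay close to it, with ORC3 at 0.084 beside RARS2 at 0.086 and GTF2H4 at -0.39 [-0.87, 0.085] beside VARS2 at -0.33.

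In that table AARS overlaps EXOSC6, MARS overlaps DDIT3 and ARHGAP9, and CARS2 overlaps NAXD. The labels name no step that marks the RNA strand, so reads from such overlaps cannot be told apart by strand. DDIT3, a stress response transcription factor, had 251 counts in the non-lean library and 175 in the lean library, a log2 ratio of 0.71 [0.42, 0.99], beside -0.065 for MARS.

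Scaffolds of the multisynthetase complex were higher while most of its enzymes were not. AIMP2 had 1062 counts in the non-lean library and 846 in the lean library, a log2 ratio of 0.51 [0.38, 0.65]. EEF1E1, also called AIMP3, had 152 counts in the non-lean library and 65 in the lean library, a ratio of 1.41 [0.98, 1.85], or 2.65-fold. The third scaffold was not matched and is not analysed here.

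Glutamine has no mitochondrial synthetase of its own in mammals. EARS2 first loads the tRNA with glutamate, and an amidotransferase of GATB, GATC and QRSL1 converts it to glutamine. All 3 subunits had intervals below 0. QRSL1 had 273 counts in the non-lean library and 402 in the lean library, a log2 ratio of -0.37 [-0.60, -0.15]. GATB had 343 and 468 counts in the non-lean and lean libraries, a ratio of -0.26 [-0.47, -0.058], and GATC 84 and 133 counts, a ratio of -0.47 [-0.89, -0.072]. EARS2 itself had 108 counts in the non-lean library and 155 in the lean library. These 3 subunits were the only members of the 12 tested mitochondrial translation factors with intervals below 0, and were singled out after their values were seen. They make up 25% of that list, near the 28.8% of all tested genes that lay below 0.

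Of the other mitochondrial translation factors 4 had intervals above 0, which is 33.3% of the 12 tested, beside 25.8% of all tested genes. The initiation factor MTIF2, at 0.56 [0.38, 0.75], and the ribosome recycling factor MRRF, at 0.43 [0.28, 0.59], were the highest. TUFM, the elongation factor that carries charged tRNA to the mitochondrial ribosome and the most abundant of them, had 2420 counts in the non-lean library, 2571 in the lean library and a ratio of 0.099 [0.019, 0.18]. The list median was 0.045. The mitochondrial ribosomal proteins, the other side of the same machinery, lay higher, with 52 of 74 intervals above 0 and a median of 0.37 beside 1 of 16 and 0.086. Cytosolic ribosomal proteins had 65 of 80 intervals above 0 and a median of 0.33, beside 6 of 20 and -0.017 for the cytosolic synthetases. Genes with more reads have narrower intervals, and these lists were not matched for depth, so their interval counts are not directly comparable. These differences were not tested.

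Cytosolic elongation factors, which work downstream of the charged tRNA, were split, with 2 of 7 intervals above 0 and 5 below and a median of -0.078. That is 28.6% above and 71.4% below, beside 25.8% and 28.8% of all tested genes. These genes have many reads and narrow intervals, so small ratios also excluded 0. EEF1A2, the muscle form of the factor that carries charged tRNA, had 22922 counts in the non-lean library and 35057 in the lean library, a log2 ratio of -0.43. EEF2, which moves the ribosome along, was the lowest at -0.83, followed by EEF1A1, the widely expressed form, at -0.44. The exchange factor subunits EEF1D and EEF1B2 were the highest at 0.54 and 0.37.

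Genes of tRNA editing and peptidyl-tRNA release were mostly higher in the non-lean library, with 5 of 6 intervals above 0, none below and a median of 0.52. That is 83.3% above, beside 25.8% of all tested genes, of which 28.8% lay below. PTRHD1, a predicted peptidyl-tRNA hydrolase, had 171 counts in the non-lean library and 116 in the lean library, a log2 ratio of 0.74 [0.40, 1.10]. The lowest were AARSD1, which clears mischarged alanine tRNA and was the most abundant, at 0.29 [0.067, 0.51], and the D-aminoacyl-tRNA deacylase DTD1 at 0.23 [-0.061, 0.52]. Of 22 tested genes of tRNA processing and CCA addition, 6 had intervals above 0, a share of 27.3% that is near the 25.8% of all tested genes, and none below, with a median of 0.25. The RNase P subunits POP5 and RPP30 were the highest at 0.77 and 0.60, TSEN34 and PRORP the lowest at -0.15 [-0.50, 0.20] and -0.13 [-0.60, 0.33], and DDX1, a part of the tRNA ligase complex and the most abundant, was at -0.073 [-0.17, 0.025].

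ATF4 itself was lower in the non-lean library, with 7945 counts in the non-lean library and 13834 in the lean library, a log2 ratio of -0.61 [-0.65, -0.57]. Of the 24 tested genes of the integrated stress response list, 12 had intervals below 0, beside 28.8% of all tested genes, and 5 above, beside 25.8%, with a median of -0.29. ATF5 and NUPR1 were the lowest at -2.37 and -1.40, and the asparagine synthetase ASNS, which makes the amino acid that NARS loads, and the hormone gene STC2 were the highest at 1.81 [0.88, 2.92] and 1.03 [-0.016, 2.21].

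**Figure D5:**
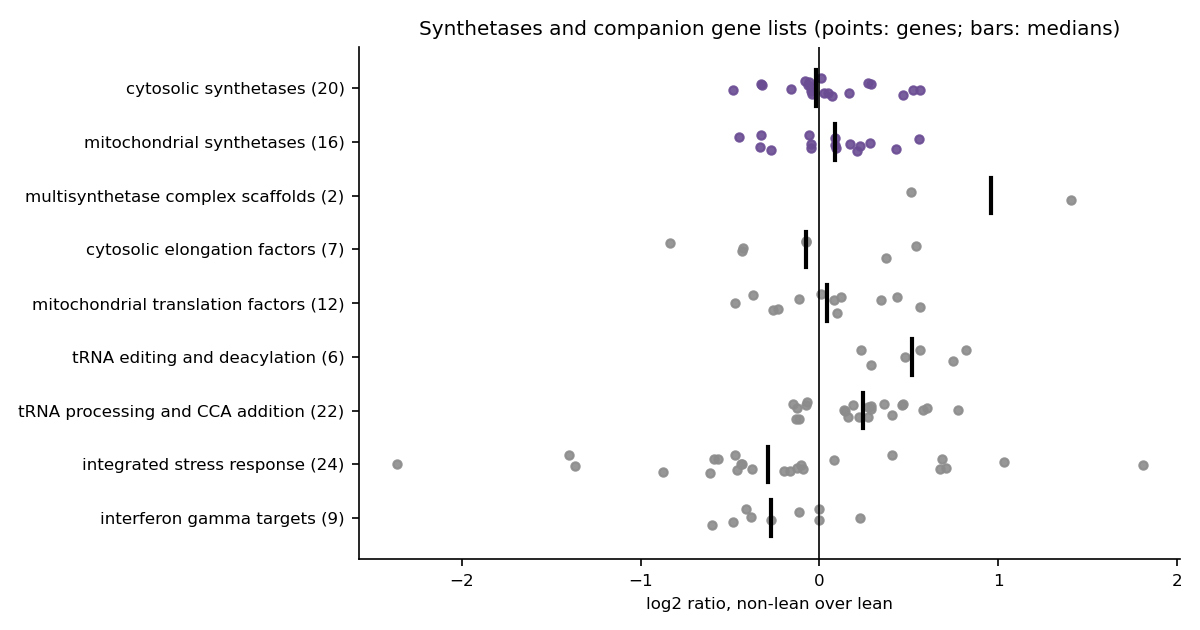
log2 ratio, non-lean over lean, of the tested genes (points) of each list, with the list median (bars) and the number of genes in brackets. The synthetases lie within -0.48 and 0.56, the editing and deacylation genes all lie above 0, and the integrated stress response genes spread from -2.37 to 1.81.

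Both libraries carried muscle markers at high levels, and markers of other cell types differed between them. Among all tested genes 28.8% of intervals lay below 0 and 25.8% above, and 7.16% of genes were at least 2-fold lower. Shares of tested intervals below 0 were 72.7% for muscle, 81.8% for macrophage, 83.3% for fibroblast and 60% for adipocyte and endothelial markers. For the 4 tested lymphocyte markers the share was 75%. No macrophage or fibroblast interval lay above 0. The 11 skeletal muscle markers found, of 12 listed, summed to 201577 CPM in the non-lean library and 256351 CPM in the lean library, and 8 of their intervals lay below 0 and 3 above, with MYH1 and CKM the lowest at -0.93 and -0.57, MB and MYLPF the highest at 0.80 and 0.13, and ACTA1 the most abundant at -0.42. Macrophage markers summed to 39.3 CPM in the non-lean library and 134 CPM in the lean library, with 9 of 11 tested intervals below 0. Fibroblast markers summed to 743 CPM and 1594 CPM in the non-lean and lean libraries, with 10 of 12 intervals below 0. Adipocyte markers had a median log2 ratio of -1.28, with 6 of 10 intervals below 0, 2 above and 5 genes at least 2-fold lower. Their sums of 804 CPM and 812 CPM in the non-lean and lean libraries were near equal because GPD1, at 619 and 607 CPM, makes up most of them, while ADIPOQ had 3 counts in the non-lean library and 46 in the lean library. Endothelial markers summed to 301 CPM in the non-lean library and 358 CPM in the lean library, with 6 of 10 intervals below 0 and 1 above. Lymphocyte markers summed to 7.40 CPM in the non-lean library and 16.7 CPM in the lean library. CD4, also expressed by macrophages, made up 1.94 CPM and 8.94 CPM of these sums. Of the 13 markers 4 were tested, with 3 intervals below 0 and 1 above. The marker above 0 was GZMB, at 1.53 [0.35, 2.96], with 21 counts in the non-lean library and 8 in the lean library. CD3D had 6 and 7 counts in the non-lean and lean libraries, and 2 of the 13, the B cell genes MS4A1 and CD79A, were at 0 in both libraries. Synthetases are expressed in all cells, and the part of these cell types in the synthetase values was not tested. In bulk tissue, fewer cells of a type and less RNA per cell cannot be told apart.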

How the data were processed

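Polyadenylated RNA was sequenced on a BGISEQ-500 instrument, per the labels' protocols, in which single-end and paired-end reads are both named, so the layout is unclear. The deposited files hold expected counts per RefSeq transcript, which need not be whole. Tools named in the submitters' processing notes, with no role, are RSEM 1.3.3, STAR 2.7.8a and Trim Galore 0.6.6. No genome build or annotation release is given in the sources used here.

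Per gene, the values of all transcripts were added up and rounded. Libraries were scaled by TMM in edgeR 4.0.16 under R 4.3.3, with factors of 1.05 for the non-lean and 0.952 for the lean library. Size factors from DESeq2 1.42.0 served as an alternative. Ratios took a prior count of 0.5, and intervals are exact Clopper-Pearson intervals at 95%, computed with scipy 1.17.1 and checked on simulated data. No molecular identifiers are named, so PCR copies may count as separate reads, and intervals cover counting error only. At 2-fold calls the interval also had to exclude 0.

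The RefSeq table of assembly T2T-MFA8v1.1 served only for names and neighbours. Members, lists and alternatives were chosen with earlier results of these data known. By the rule for naming genes every synthetase could be named, and of the other lists the 2 highest and 2 lowest tested members and the most abundant member. Genes that overlap or neighbour a synthetase could be named beside it. GATB, CD3D, MS4A1 and CD79A were named outside this rule. Counts and medians of lists include 2 members whose own values are not reported here. Sequences and transcript lengths were not used here, so levels are not compared between genes.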

Additional observations from a re-analysis of the deposited data

How the results depend on the processing

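No paired analysis was possible because each group has 1 library. For the same reason no library could be left out. With total counts the summed log2 ratios were 0.14 for cytosolic and 0.17 for mitochondrial synthetases, the medians 0.12 and 0.23, and 11 intervals lay above 0. A 2-fold difference was reached upward in the non-lean library by 673 and downward by 982 of 13707 tested genes, 40.7% upward among those called, and with total counts by 931 and 732, or 56.0%. With median-of-ratios size factors 8 synthetase intervals lay below 0 in place of 5, with KARS, CARS2 and EARS2 added. The cytosolic sum was then -0.031 [-0.062, -0.00058]. Without a filter on low counts 1082 genes passed 2-fold upward, and at a mean CPM of at least 5 the counts were 231 higher and 485 lower, with a mitochondrial median of 0.020 after MARS2 and PARS2 dropped out.

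On the leading transcript model alone, which leaves out all other reads of a gene, the cytosolic sum was 0.22 [0.19, 0.26]. The mitochondrial sum was -0.20 [-0.27, -0.12], and the cytosolic and mitochondrial medians were 0.23 and -0.073. Above 0 lay 16 intervals of genes, and all of these intervals leave out the uncertainty of dividing shared reads among models. The mitochondrial share, non-lean minus lean, was then -4.26 percentage points. Among 14 members whose sign differed, AARS and IARS turned to 0.18 and 0.17 from intervals below 0, a member alternative added after the data were seen. Without GARS and KARS the cytosolic median was 0.019. Without the most abundant member of each class the mitochondrial sum was -0.072 [-0.14, -0.0017] and the share difference -0.823 percentage points. The mitochondrial member left out, SARS2, also had the highest ratio of its class, so that sum could only fall. A prior count of 2 moved neither the medians nor the 2-fold counts past these limits. At this depth a mitochondrial gene near 100 counts is resolved only to an interval about as wide as that of RARS2, -0.30 to 0.47.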
